A study of Mus musculus with 9 samples.

Results

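The genes Myh2, Myh1, Myh4, Mylpf, Acta1, Tnnt3, Actn3, Atp2a1, Ckm and Car3, which in adult mammals are known for their use in skeletal muscle fibres, were followed here through RNA-seq counts of mouse cerebellum. They were listed together as fast skeletal muscle genes, but not all of them are particular to fast fibres. They are 10 of the 37816 genes in the counts, and each was found by its Ensembl identifier. The genes were chosen by their measured counts in these same 9 libraries, so their levels and their differences between groups are given as a description and carry no test. RNA came from the cerebellum of 9 mice on a C57BL/6 background, harvested at 18 months of age. All mice carried the human ATXN3 gene on a yeast artificial chromosome, so that the controls hold a transgene as well. The CAG tract of that gene had 15 repeats in the control group (15Q, n = 3) and 84 repeats in the SCA3 sham group (84Q, n = 3). The third group (84Q+IGF-1, n = 3) had the same 84 repeats and received 50 mg/kg IGF-1 by intraperitoneal injection each week, beginning at 9 months of age. The protocol in the labels names PBS (0.01 M) as the other injection, while the treatment field of the 15Q and 84Q samples reads untreated. Nothing in the labels says how the cerebella were dissected.

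Skeletal muscle fibres contract by the sliding of myosin filaments along actin filaments. Fast fibres differ from slow ones in the isoforms they use: their own myosin heavy and light chains, a fast troponin complex and a fast calcium pump that returns calcium to the sarcoplasmic reticulum. In muscle fibres a cytosolic creatine kinase regenerates ATP. Neurons and glia move cargo and shape their processes with other members of the same families, among them the non-muscle myosins, cytoplasmic actins, the pump Atp2a2 and the brain creatine kinase Ckb. Of the fast fibre proteins, parvalbumin is also made by Purkinje cells and inhibitory interneurons of the cerebellum.

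The 9 libraries held between 17482654 and 58269196 counts each, and the median was 40249019 for 15Q against 22808219 for 84Q and 26914560 for 84Q+IGF-1. Levels are given as CPM, counts scaled to the size of the library after TMM normalization, or as TPM where genes are compared with each other, since TPM also divides by the exon length. A level of 3 counts, taken as the floor, stood between 0.0515 and 0.172 CPM. The labelled tissue held in all libraries: 5 Purkinje cell genes (Itpr1, Car8, Calb1, Ppp1r17 and Pcp2) summed to between 5743 and 6440 CPM and 4 granule cell genes (Cbln3, Fat2, Neurod1 and Gabra6) to between 3122 and 3695 CPM. In a bulk sample, a smaller number of cells of a type and less RNA per cell cannot be told apart. Nothing in the labels says whether replicates came from separate litters or processing days, so the spread between them may be partly technical. Codes in the sample titles begin alike in some 84Q and 84Q+IGF-1 libraries and differently in 15Q, but their meaning is not given.

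The members were highest in the 3 control libraries. The 10 genes summed to 19.8, 28.5 and 29.3 CPM in 15Q replicates 1, 2 and 3, to 5.82, 4.39 and 5.35 CPM in the 84Q replicates and to 5.10, 5.30 and 5.79 CPM in the 84Q+IGF-1 replicates. The group means were 25.9 ± 5.27 CPM (SD, n = 3) in 15Q, 5.19 ± 0.731 CPM (n = 3) in 84Q and 5.40 ± 0.352 CPM (n = 3) in 84Q+IGF-1, so that 15Q stood 4.99-fold and 4.80-fold above the other groups. Without Actn3, the member that differed least, these ratios were 7.80 and 7.73. The 15Q libraries did not overlap with the others, and the 84Q and 84Q+IGF-1 ranges overlapped each other.

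For 9 of the 10 genes, each 15Q library lay above each of the other 6, and Actn3 was the exception. Over all 19353 genes kept by the filter on low counts, 6.34% had this order, 13.5% had every 15Q library above every 84Q library, and 12.9% had every 15Q library above every 84Q+IGF-1 library. Both comparisons use the same 15Q libraries and so are not independent of each other. In the edgeR fit to all genes, 9 of the 10 members passed the filter and Myh2 did not. Of these 9, 8 were called lower in 84Q than in 15Q, where the background was 1.9% of all genes tested, and 8 were called lower in 84Q+IGF-1 than in 15Q, where it was 2.06%. None was called lower in 84Q+IGF-1 than in 84Q, where the background was 0.0% by edgeR (905 genes had an unadjusted p under 0.05, and the DESeq2 Wald test called 6). These counts repeat the choice of the genes, and a gene that passed the filter only through 15Q had to differ, so nothing is read from them.

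**Figure D1:**
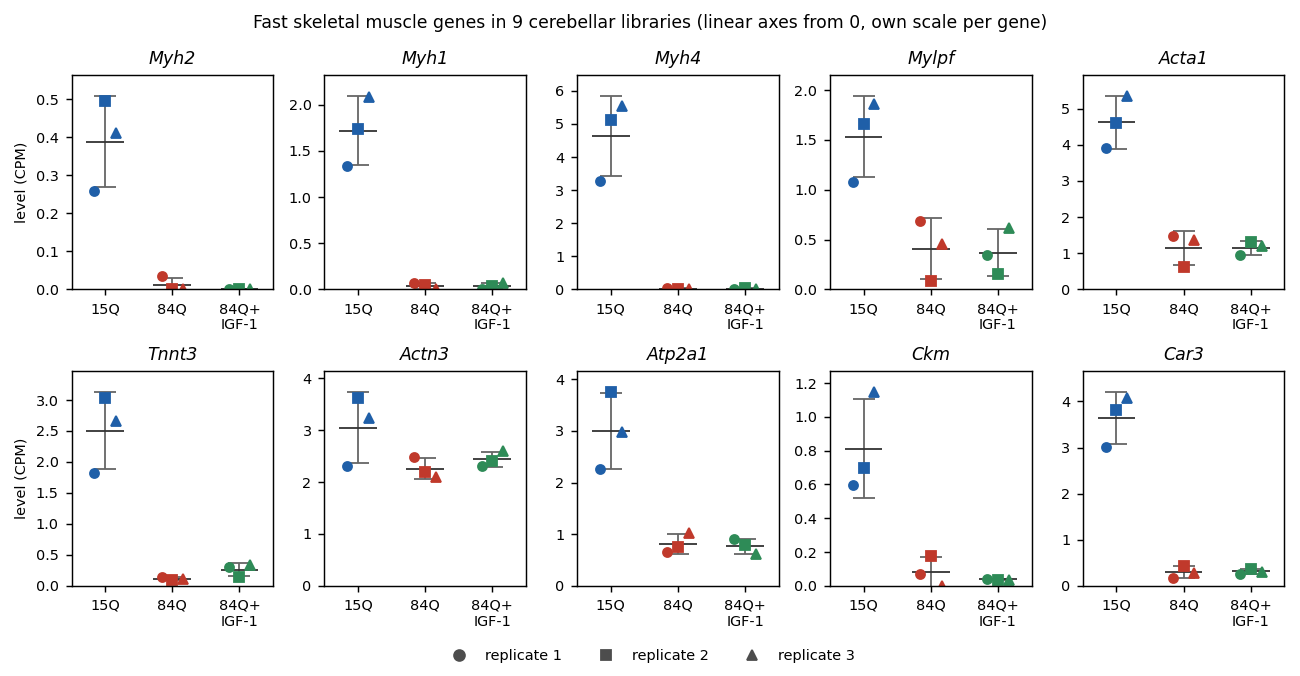
Level of each of the 10 genes in CPM (linear axis from 0, with its own scale in each panel) by group. Points are single libraries with the replicate given by the symbol, horizontal lines are group means and bars are 1 SD (n = 3 libraries), drawn only above 0. In 9 panels all 3 15Q points lie above the other 6, and in the Actn3 panel they overlap. In every panel 15Q replicate 1 is the lowest of the 15Q points.

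Myosin heavy chains are the motor proteins that set the speed of a fibre, and Myh2, Myh1 and Myh4 encode the fast isoforms of adult muscle, from the slower IIa to the faster IIx and IIb. The 3 genes lie side by side on the plus strand of chromosome 11 (GRCm38): Myh2 (ENSMUSG00000033196.17) from 67171027 to 67197517, Myh1 (ENSMUSG00000056328.14) from 67200052 to 67224575 and Myh4 (ENSMUSG00000057003.12) from 67238029 to 67260446. Their coding sequences are 91.1% identical between Myh2 and Myh1, 90.2% between Myh1 and Myh4 and 88.2% between Myh2 and Myh4. Of the 31-base words of their transcripts, 42.9% in Myh1, 34.5% in Myh2 and 30.4% in Myh4 also occur in other genes, mostly in each other and in Myh8, the perinatal isoform. How the counting treated reads that match several genes is not given in the sources used here, and the division of counts among the 3 genes is therefore uncertain. Exons on the opposite strand also overlap 8.11% of the exon bases of Myh1 (515 bases, Myhas) and 3.32% of those of Myh2 (237 bases, 9430073C21Rik), and the strand setting of the counting is not given in the sources used here. The most alike and the least alike stretches of 60 coding bases are printed here to show what a read can and cannot tell apart. In the most alike stretch, coding bases 1321 to 1380, all 60 bases were the same.
Myh2, Myh1 and Myh4: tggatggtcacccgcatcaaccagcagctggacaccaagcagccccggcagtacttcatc
In the least alike stretch, coding bases 3851 to 3910 of Myh2 and Myh1 and 3842 to 3901 of Myh4, 35 of 60 bases were the same in all 3 genes, and capitals mark the positions that were not.
Myh2: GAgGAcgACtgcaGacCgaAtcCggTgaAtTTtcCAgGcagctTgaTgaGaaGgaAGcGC
Myh1: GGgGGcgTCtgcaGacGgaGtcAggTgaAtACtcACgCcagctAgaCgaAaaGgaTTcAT
Myh4: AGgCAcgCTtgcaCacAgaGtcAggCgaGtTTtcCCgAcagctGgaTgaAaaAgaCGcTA

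Myh4, the fastest isoform, had 88, 206 and 324 counts in 15Q replicates 1, 2 and 3. It had 1, 0 and 0 counts in the 84Q replicates and 0, 1 and 0 in the 84Q+IGF-1 replicates. Every 15Q library thus held more than 80 counts, and no other library held more than 1. The level was 4.64 ± 1.20 CPM in 15Q (SD, n = 3), 341-fold above 84Q (exact 95% interval 60.9 to 13478 from the pooled counts, counting error only) and 389-fold above 84Q+IGF-1 (69.5 to 15378). At the mean 15Q level, the depth of the other libraries would have given between 81.4 and 135 counts of Myh4.

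Myh1 had 36, 70 and 122 counts in the 15Q replicates, 2, 1 and 0 in the 84Q replicates and 0, 1 and 2 in the 84Q+IGF-1 replicates. The mean level was 1.72 ± 0.374 CPM in 15Q, 41.9-fold (exact 95% interval 14.2 to 205) and 47.8-fold (16.2 to 234) above the other groups. Myh2, the least abundant of the 3, had 7, 20 and 24 counts in the 15Q libraries, 1, 0 and 0 in those of 84Q and 0 in all 84Q+IGF-1 libraries. Its ratio of 15Q to 84Q was 28.1 (exact 95% interval 4.82 to 1132), and at the floor of 3 counts over the group it was at least 10.7-fold higher in 15Q than in 84Q+IGF-1. All 3 heavy chains were thus at or below 2 counts in each of the 6 libraries that carry 84 repeats.

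The 3 isoforms kept the same order in each control library. Myh4 made up 67.2% of the 131 counts of the 3 genes in 15Q replicate 1 (exact 95% interval 58.4 to 75.1), 69.6% of 296 in replicate 2 (64.0 to 74.8) and 68.9% of 470 in replicate 3 (64.5 to 73.1). Myh1 made up 27.5%, 23.6% and 26.0%, and Myh2 5.34%, 6.76% and 5.11%. Divided by exon length, the Myh4 shares were 68.8%, 71.2% and 70.5%. The intervals cover counting error only, and those of the 3 control libraries overlapped for each isoform. The embryonic isoform Myh3 (12, 23 and 44 counts in 15Q, 8 to 21 in the others) and the perinatal isoform Myh8 (1, 13 and 5 counts in 15Q, 0 to 2 in the others) did not separate the groups.

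Promoters of the 3 heavy chains were read from RefSeq (GRCm38.p6), from 250 bases before to 50 bases after the start of each gene, because the 3 genes moved together. Of the 10 members, 7 had an entry in that table. A search for shared letters, made after the sequences were seen, found a run of 20 bases in all 3 heavy chain promoters, and of the 32851 promoters in the table only these 3 held it. It began at base −130 in Myh2, −165 in Myh1 and −163 in Myh4, with the first base of the gene counted as 0. Capitals mark the run in the promoters of Myh2 (chr11:67170777-67171076), Myh1 (chr11:67199852-67200151) and Myh4 (chr11:67237562-67237861), all on the plus strand. These positions count from the start in RefSeq, which for Myh2 is the start given above, for Myh1 lies 50 bases downstream of it and for Myh4 lies 217 bases upstream of it.
Myh2: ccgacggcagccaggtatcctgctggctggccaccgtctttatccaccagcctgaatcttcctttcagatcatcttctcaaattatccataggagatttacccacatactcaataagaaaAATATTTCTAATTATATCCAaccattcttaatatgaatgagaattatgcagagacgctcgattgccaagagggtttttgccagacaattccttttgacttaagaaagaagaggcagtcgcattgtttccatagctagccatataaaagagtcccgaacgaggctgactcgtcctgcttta
Myh1: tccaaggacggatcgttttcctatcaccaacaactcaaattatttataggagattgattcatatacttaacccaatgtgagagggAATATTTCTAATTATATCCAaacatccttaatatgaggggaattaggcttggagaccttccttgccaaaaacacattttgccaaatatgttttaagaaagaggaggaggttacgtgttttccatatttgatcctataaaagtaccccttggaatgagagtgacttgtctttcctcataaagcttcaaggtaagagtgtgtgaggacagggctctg
Myh4: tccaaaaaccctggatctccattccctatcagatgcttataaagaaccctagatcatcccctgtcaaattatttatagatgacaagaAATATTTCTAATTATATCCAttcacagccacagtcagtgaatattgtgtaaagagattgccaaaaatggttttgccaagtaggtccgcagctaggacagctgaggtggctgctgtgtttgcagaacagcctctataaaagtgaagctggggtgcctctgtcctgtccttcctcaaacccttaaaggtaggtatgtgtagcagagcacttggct
Downstream of the run, the letters TATAAA, the core of a TATA box, began at −32 in Myh1, at −31 in Myh4 and at 10 in Myh2. The distance from the start of the run to that of TATAAA was 133, 132 and 140 bases. TATAAA on either strand occurred in 4 of the 7 member promoters, against 13.6% of all promoters in the table. The E-box CANNTG, the letters bound by myogenic regulators among many other factors, occurred in 5 of the 7, against 72.3% of all promoters. CTANNNNTAG, the letters known for MEF2 factors, occurred in 0 of the 7, against 3.69% of all promoters. CANNTG and CTANNNNTAG read the same on both strands, and no match means only that these letters are not in the window.

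Acta1 and Mylpf encode other parts of the contractile filaments. Acta1 (ENSMUSG00000031972.5, chromosome 8, 123891769 to 123894751, minus strand), the alpha-actin of the thin filament in skeletal muscle, had 105, 186 and 313 counts in the 15Q replicates. It had 43, 14 and 24 counts in the 84Q replicates and 22, 35 and 35 in the 84Q+IGF-1 replicates. The level was 4.62 ± 0.724 CPM in 15Q, 1.15 ± 0.471 CPM in 84Q and 1.15 ± 0.191 CPM in 84Q+IGF-1 (SD, n = 3 each). Unlike the heavy chains, Acta1 was thus well above the floor in all 9 libraries, and the 15Q level was 4.0-fold higher than in both other groups. Of its 31-base words, 4.11% occur in other genes, mostly in the cytoplasmic actin Actb. The Acta1 promoter (chr8:123894726-123895025, minus strand, RefSeq, whose start lies 24 bases upstream of the one given above) is shown as the thin filament counterpart of the heavy chains, with 2 E-boxes and a TATAAA in capitals.
Acta1: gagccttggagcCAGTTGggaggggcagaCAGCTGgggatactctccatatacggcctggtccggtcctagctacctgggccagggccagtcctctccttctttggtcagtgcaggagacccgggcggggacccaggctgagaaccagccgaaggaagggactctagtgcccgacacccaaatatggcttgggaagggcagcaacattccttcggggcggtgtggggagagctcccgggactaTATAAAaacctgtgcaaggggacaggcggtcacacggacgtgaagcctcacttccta

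Mylpf (ENSMUSG00000030672.12, chromosome 7, 127208890 to 127214298) encodes the regulatory light chain that sits on the neck of the fast heavy chains. It had 29, 67 and 109 counts in the 15Q libraries, 20, 2 and 8 in those of 84Q and 8, 4 and 18 in 84Q+IGF-1. The level was 1.53 ± 0.408 CPM in 15Q, 0.411 ± 0.303 CPM in 84Q and 0.370 ± 0.234 CPM in 84Q+IGF-1. Values in the latter groups spread widely, from 0.0878 to 0.689 CPM over the 6 libraries, and the lowest 15Q library stood at 1.08 CPM. The ratios of 15Q to 84Q and to 84Q+IGF-1 were 3.73 and 4.15.

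Tnnt3 and Actn3 encode proteins that regulate and anchor the thin filament. Tnnt3 (ENSMUSG00000061723.18, chromosome 7, 142498836 to 142516009), the fast troponin T that ties the calcium sensor to tropomyosin, had 49, 122 and 156 counts in the 15Q libraries, 4, 2 and 2 in those of 84Q and 7, 4 and 10 in 84Q+IGF-1. The level was 2.50 ± 0.619 CPM in 15Q, 0.113 ± 0.0250 CPM in 84Q and 0.264 ± 0.101 CPM in 84Q+IGF-1. The ratio of 15Q to 84Q was 22.1 and that of 15Q to 84Q+IGF-1 was 9.47. All 3 84Q+IGF-1 values (0.150 to 0.342 CPM) lay above all 3 84Q values (0.0878 to 0.138 CPM), but these rest on 10 counts or fewer per library.

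Actn3 (ENSMUSG00000006457.4, chromosome 19, 4861216 to 4877909, minus strand) encodes alpha-actinin-3, which anchors actin at the Z line of fast fibres. It was the only member whose groups overlapped. It had 62, 146 and 189 counts in 15Q (2.30, 3.62 and 3.23 CPM), 72, 50 and 37 in 84Q (2.48, 2.2 and 2.11 CPM) and 54, 64 and 76 in 84Q+IGF-1 (2.31, 2.41 and 2.60 CPM). The lowest 15Q library lay below 4 of the other 6, so that the ratios of 1.35 and 1.25 are not larger than the spread between libraries. Averaged over the 6 libraries with 84 repeats, Actn3 stood at 77.1% of its 15Q mean, the highest such share among the 10 genes. Its paralogs Actn1 and Actn4, used outside muscle, were not called in either comparison.

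Atp2a1, Ckm and Car3 serve the energy and ion balance of the fibre. Atp2a1 (ENSMUSG00000030730.12, chromosome 7, 126445858 to 126463108, minus strand), the calcium pump of the fast sarcoplasmic reticulum, had 61, 151 and 174 counts in the 15Q libraries, 19, 17 and 18 in those of 84Q and 21, 21 and 18 in 84Q+IGF-1. The level was 2.99 ± 0.740 CPM in 15Q, 0.809 ± 0.193 CPM in 84Q and 0.769 ± 0.143 CPM in 84Q+IGF-1. The 15Q libraries did not overlap with the others, at ratios of 3.70 and 3.89. Of the exon bases of Atp2a1, 21.9% overlap exons of Rabep2 on the opposite strand. Without the strand, reads of the 2 genes in these bases cannot be told apart, and their part in the Atp2a1 counts was not tested.

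Ckm (ENSMUSG00000030399.2, chromosome 7, 19404776 to 19422841), the muscle creatine kinase, had 16, 28 and 67 counts in the 15Q libraries, 2, 4 and 0 in those of 84Q and 1 in each of the 84Q+IGF-1 libraries. The level was 0.811 ± 0.293 CPM in 15Q and 0.0815 ± 0.0885 CPM in 84Q, a ratio of 9.95. Against 84Q+IGF-1 the ratio was 23.3 (exact 95% interval 7.76 to 115, counting error only). A share of 15.5% of its exon bases overlaps A930016O22Rik on the opposite strand.

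Car3 (ENSMUSG00000027559.5, chromosome 3, 14863512 to 14872523) encodes carbonic anhydrase III, which is known from skeletal muscle and also from adipocytes and liver. Its 15Q counts of 81, 154 and 239 compare with 5, 10 and 5 in 84Q and 6, 10 and 9 in 84Q+IGF-1. The level was 3.64 ± 0.560 CPM in 15Q, 0.299 ± 0.134 CPM in 84Q and 0.314 ± 0.0597 CPM in 84Q+IGF-1. The 15Q libraries stood 12.2-fold and 11.6-fold above the other groups, with no overlap.

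Compared per length, the 10 genes fell into steps in the 15Q libraries. Acta1 was highest at 12.2 ± 2.05 TPM (SD, n = 3) and its lowest library lay above every library of the other members. Tnnt3 (6.42 ± 1.60 TPM), Mylpf (5.87 ± 1.61), Car3 (5.15 ± 0.837), Actn3 (4.27 ± 0.955), Atp2a1 (3.49 ± 0.859) and Myh4 (3.13 ± 0.836) followed, and each overlapped with the next in this order. Ckm (1.13 ± 0.424 TPM) and Myh1 (1.10 ± 0.251 TPM) overlapped with each other and lay below all of these. Myh2 was lowest at 0.221 ± 0.0680 TPM. In 84Q the order was different, with Actn3 (3.06 ± 0.286 TPM) and Acta1 (2.95 ± 1.20 TPM) highest and overlapping, followed by Mylpf (1.52 ± 1.13 TPM) and Atp2a1 (0.911 ± 0.210 TPM).

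The part of each level that was in excess in 15Q was computed per control library, as its TPM minus the mean of the 6 libraries with 84 repeats. The members' summed excess was 23.4, 37.1 and 39.8 TPM in 15Q replicates 1, 2 and 3. Acta1 was 30.9%, 24.6% and 28.5% of it, Tnnt3 17.7%, 19.5% and 16.2%, Car3 16.2%, 13.3% and 13.6% and Mylpf 11.2%, 13.1% and 14.4%. Myh4 was 9.30%, 9.21% and 9.48%, whereas without division by exon length, in CPM, it was the largest share at 22.4%, 21.9% and 23.0%. Actn3 gave −0.0584%, 4.91% and 3.43% of the TPM excess, so that in replicate 1 it was no higher than the mean of the 6 libraries with 84 repeats. The remaining members, Myh1, Myh2, Atp2a1 and Ckm, were between 0.585% and 9.29%.

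**Figure D2:**
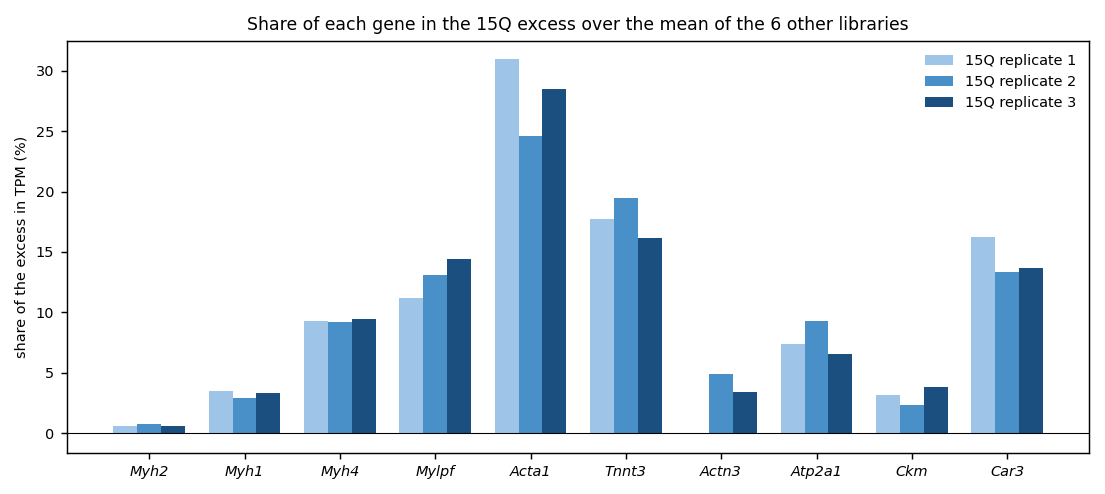
Share of each gene (percent, linear axis) in the members' summed TPM excess of each 15Q library over the mean of the 6 libraries with 84 repeats. Bars are single libraries, without error. Acta1 is the largest share in each (24.6% to 30.9%), Myh4 is at 9.21% to 9.48%, and Actn3 is too close to 0 to be seen in replicate 1. In CPM, which is not drawn, Myh4 is the largest.

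Other genes of fast fibres, none of them a member, were read from a list of 15, of which 14 were in the counts and 11 passed the filter. Tnni2, the fast troponin I that blocks contraction at rest, had 15, 44 and 71 counts in the 15Q libraries, 1, 3 and 3 in those of 84Q and 4, 3 and 0 in 84Q+IGF-1. The 15Q libraries lay above the other 6, but Tnni2 passed the filter only through them (the filter asks for 0.371 CPM in at least 3 libraries, which 0 of the other 6 reached), so that it had to differ and nothing is read from its call in both comparisons.

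Myl1, the fast essential light chain, fell by 1.0 on the log2 scale in 84Q (SE 0.28, adjusted p = 0.0912, quasi-likelihood F-test of edgeR, Benjamini-Hochberg adjusted over all genes, as for every adjusted p given here) and by 1.30 in 84Q+IGF-1 (SE 0.28, adjusted p = 0.0410). Its counts were 44, 91 and 119 in 15Q, 33, 26 and 11 in 84Q and 12, 27 and 25 in 84Q+IGF-1. The call in 84Q was not made in 8 of 15 alternative fits, with adjusted p up to 0.284, among them those without 15Q replicate 2 or 3, any 84Q replicate or 84Q+IGF-1 replicate 3. The call in 84Q+IGF-1 was lost without 15Q replicate 2 (adjusted p = 0.159), 15Q replicate 3 (0.160) or 84Q+IGF-1 replicate 1 (0.130). Cacna1s, the voltage sensor that couples the membrane to calcium release, was called in 84Q+IGF-1 (log2 fold change −1.10, SE 0.27, adjusted p = 0.0649) and not in 84Q (−0.85, SE 0.27, adjusted p = 0.124), and it was not called between 84Q+IGF-1 and 84Q. The call of Cacna1s was likewise not made in 8 of 15 alternative fits, among them each that left out a 15Q or an 84Q+IGF-1 library (adjusted p up to 0.226).

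With Tnni2 included, 2 of the 11 tested genes were called lower in 84Q (1.9% of all genes tested were) and 3 in 84Q+IGF-1 (2.06%), and none was called higher. Without 15Q replicate 2 or 3 the count in 84Q was 0. The list's median log2 fold change was −0.10 in 84Q and −0.06 in 84Q+IGF-1, and over all genes tested it was −0.00 and −0.01. In 4 of the 11 tested genes (Myl1, Tnni2, Mybpc2 and Cacna1s) each 15Q library lay above the other 6, against 6.34% of all genes tested. Tnni2 among them passed the filter only through 15Q. Mybpc2, a fast myosin-binding protein, had a log2 fold change of −1.05 (SE 0.39, adjusted p = 0.173) in 84Q, and its 3 15Q libraries lay above the other 6 (22, 35 and 70 counts against 4 to 20). Myoz1, which did not pass the filter, had 3, 4 and 12 counts in 15Q and 2 counts in all over the other 6 libraries. Mylk2, a kinase of the myosin light chain, had 4, 7 and 13 counts in 15Q and 0 to 2 in the others, and Ampd1, the AMP deaminase of muscle, had 0 to 5 in each of the 9. Both were not tested. The genes with the highest CPM of the list, the glycogen phosphorylase Pygm (86.0 ± 3.43 CPM in 15Q) and the enolase Eno3 (14.5 ± 0.858 CPM), were not called. Pygm was 102 ± 5.35 CPM in 84Q, below the 1.5-fold threshold at a log2 fold change of 0.25 (SE 0.05, adjusted p = 0.0372). Casq1, Pgam2, Sypl2, Tmod4 and Jsrp1 had log2 fold changes between −0.38 and 0.31 and adjusted p of at least 0.286 in both comparisons.

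None of 3 fast fibre genes that cerebellar cells also make was called. Pvalb, the calcium buffer parvalbumin, stood at 181 ± 3.10 CPM in 15Q, 215 ± 17.5 CPM in 84Q and 224 ± 14.8 CPM in 84Q+IGF-1 (log2 fold changes 0.25, adjusted p = 0.0876, and 0.30, adjusted p = 0.0484, both under 1.5-fold). The calcium release channel Ryr1 and the phosphofructokinase Pfkm had log2 fold changes of −0.11 (adjusted p = 0.334) and 0.16 (adjusted p = 0.227) in 84Q. Their group means were 105 to 113 CPM and 442 to 509 CPM.

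Genes of striated muscle in general, in a list of 28 of which 18 passed the filter, held 2 calls. None was called in 84Q by edgeR, where 1.9% of all genes tested were called lower and the DESeq2 Wald test called 2 of the list. In 84Q+IGF-1, where 2.06% of all genes tested were called lower, 2 fell. These were Ttn, the spring protein titin (log2 fold change −1.0, SE 0.27, adjusted p = 0.0864), and Smyd1, a methyltransferase of the myosin filament (−1.11, SE 0.25, adjusted p = 0.0459). Ttn lost the call in 7 and Smyd1 in 5 of 15 alternative fits, both without 15Q replicate 2 or 3 or 84Q+IGF-1 replicate 1, Ttn without 84Q+IGF-1 replicate 2 (adjusted p up to 0.350) and Smyd1 without 84Q+IGF-1 replicate 3 (adjusted p up to 0.205). The list's median log2 fold change was −0.39 in 84Q and −0.47 in 84Q+IGF-1. Xirp1, Myom2 and Synpo2l, among the 18 tested, passed the filter only through 15Q. Each reached the level of the filter in only 2 libraries outside 15Q. Their log2 fold changes, between −1.38 and −0.55 over both comparisons, enter this median, so nothing is read from it. In 5 of the 18 tested genes each 15Q library lay above the other 6, a larger share than the 6.34% of all genes tested. Xirp2, a filament-anchoring protein that did not pass the filter, had 7, 18 and 35 counts in 15Q and 1 count in all over the other 6 libraries. Neb, the thin filament ruler nebulin, was at 68.0 ± 9.52 CPM in 15Q and 52.8 ± 5.31 CPM in 84Q, below the 1.5-fold threshold. Of the next in level, the intermediate filament protein desmin (Des) was at 15.2 to 16.4 CPM as group means and Srl, a protein of the sarcoplasmic reticulum, at 11.9 to 12.6 CPM. Ldb3, a Z line protein, was at 9.49 ± 0.209 CPM in 15Q, above the other 6 libraries, and was not called (log2 fold changes −0.28 and −0.35).

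Of a list of 10 slow fibre genes, 6 passed the filter and none was called in either comparison. Myh7b, a slow heavy chain that is also made outside muscle, was at 39.1 ± 2.94 CPM in 15Q, 32.1 ± 2.04 CPM in 84Q and 33.0 ± 1.92 CPM in 84Q+IGF-1. Each 15Q library of Myh7b lay above the other 6, at a change under 1.5-fold (log2 fold change −0.28, SE 0.08, adjusted p = 0.0924 in 84Q, and −0.24, SE 0.08, adjusted p = 0.149 in 84Q+IGF-1). Beside Myh7b, the slow regulatory light chain Myl2 had every 15Q library above every 84Q library, which 13.5% of all genes tested had. Myh7 had every 15Q library above every 84Q+IGF-1 library, which 12.9% of all genes tested had. Myh7 reached the level of the filter in only 1 library outside 15Q, so nothing is read from its order. The slow heavy chain Myh7 had 16, 11 and 35 counts in the 15Q libraries, 7, 19 and 1 in those of 84Q and 0, 6 and 4 in 84Q+IGF-1. Myl2 was at 1.18 ± 0.143 CPM in 15Q, 0.784 ± 0.157 CPM in 84Q and 1.03 ± 0.117 CPM in 84Q+IGF-1. The slow troponins Tnni1 and Tnnc1 overlapped between groups, with log2 fold changes between −0.49 and 0.54. Of the untested genes, Tnnt1 and Myl3, the slow troponin T and slow light chain, had 3 to 7 counts in the 15Q libraries and 0 to 7 in the others. Csrp3 had 0, 7 and 9 counts in 15Q and 1 in all over the other 6, and Myoz2 had 1, 7 and 4 in 15Q and 0 to 2 in the others. The list summed to 73.6 ± 4.11 CPM in 15Q, 69.1 ± 4.31 CPM in 84Q and 70.6 ± 4.98 CPM in 84Q+IGF-1 and the groups overlapped, but most of this sum is Myh7b and Casq2, the calcium buffer of slow and heart muscle (29.4 to 33.1 CPM as group means). A difference between fast and slow genes was not tested as such.

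Embryonic and perinatal genes (2 of 3 tested), heart muscle genes (3 of 7 tested) and myogenic regulators with end plate genes (1 of 10 tested) held no call in either comparison. Myl4, the embryonic light chain, had 9 to 19 counts in each library. Of the heart genes, the group means were 38.1 to 42.3 CPM for Mybpc3, 9.78 to 11.04 CPM for Myh6, 0.905 to 1.17 CPM for Tnni3 and 0.243 to 0.312 CPM for Tnnt2. Chrnb1, a subunit of the acetylcholine receptor of the end plate, was at 4.11 to 5.60 CPM, and Chrna1, another subunit, had 4 to 11 counts in each library. The regulators Myod1, Myog, Pax7 and Myf6 had at most 8 counts in any library. Myod1 had 6, 8 and 8 counts in 15Q and 1 to 6 in the others, which at this depth does not show a difference. Musk, the organizer of the end plate, had 11, 11 and 33 counts in 15Q and 0 to 6 in the others, and was not tested.

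In smooth muscle genes, of which 5 of 8 were tested, Myh11, the smooth heavy chain, fell in 84Q (log2 fold change −0.62, SE 0.14, adjusted p = 0.0452). It was at 23.4 ± 1.77 CPM in 15Q, 15.2 ± 2.34 CPM in 84Q and 16.5 ± 2.78 CPM in 84Q+IGF-1. The call was not made in 4 of 15 alternative fits, among them those without 15Q replicate 1, where the change was under 1.5-fold, 15Q replicate 3 (adjusted p = 0.164) or 84Q replicate 3 (0.144). Acta2, the smooth actin, was not called (−0.25, SE 0.14, adjusted p = 0.342), nor were Smtn and Lmod1 (−0.18 and −0.59 in 84Q).

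**Figure D3:**
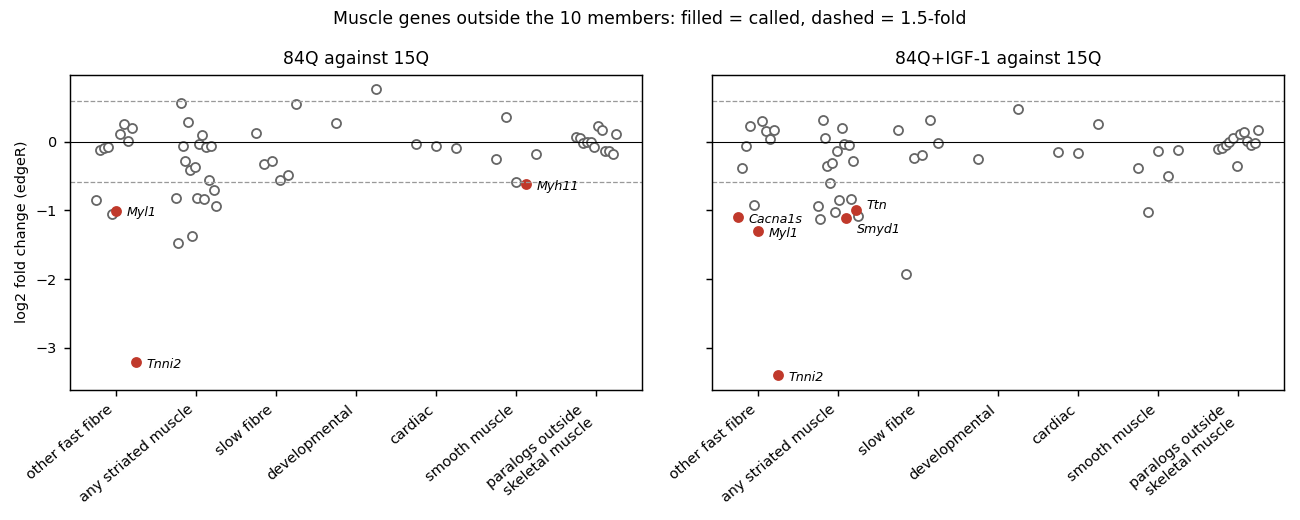
Log2 fold change (linear axis, edgeR) against 15Q of the tested genes of 7 lists that hold no member, in 84Q (left) and 84Q+IGF-1 (right). Each point is 1 gene, filled points were called and named, and dashed lines mark 1.5-fold. Tnni2, which passed the filter only through 15Q, lies lowest in both panels, at −3.21 and −3.40, and the paralogs used outside skeletal muscle lie near 0.

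Of 12 tested paralogs that serve the same functions in brain cells, none was called in either comparison, with median log2 fold changes of −0.00 and −0.01. Atp2a2, the counterpart of Atp2a1, stood at 1306 to 1361 CPM as group means, and Ckb, the counterpart of Ckm, at 1646 to 1920 CPM. Car2, a paralog of Car3, was 127 ± 10.2 CPM in 15Q and 98.7 ± 1.43 CPM in 84Q+IGF-1 (log2 fold change −0.36, SE 0.06, adjusted p = 0.00825), which is under 1.5-fold. The non-muscle heavy chains Myh10, Myh9 and Myh14 were at 543 to 596, 261 to 297 and 218 to 239.9 CPM as group means, the cytoplasmic actins Actb and Actg1 at 875 to 979 and 391 to 435 CPM, the light chain Myl6 at 133 to 149.7 CPM and the mitochondrial creatine kinase Ckmt1 at 122 to 137 CPM. Of the 12, only Car2 had every 15Q library above every 84Q+IGF-1 library, against 12.9% of all genes tested. Only Myh14 had every 15Q library above every 84Q library, against 13.5%.

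Many marker genes of other tissues, though not all, moved with the members, and their part in the result was not tested. In the intestinal epithelium list, all 9 genes were higher in each 15Q library than in the other 6, and the list summed to 29.6 to 45.9 CPM in 15Q, 5.03 to 6.37 CPM in 84Q and 4.83 to 6.17 CPM in 84Q+IGF-1. Only Vil1, Muc2 and Lgals4 passed the filter other than through 15Q alone, and all of them had this order, against 6.34% of all genes tested. Fabp1, a fatty acid carrier of gut and liver, had 151, 345 and 527 counts in 15Q and 1 in all over the other 6, and Muc13, a mucin, had 167, 418 and 704 and 1 to 6. Lgals4 and Vil1, a galectin and the microvillus protein villin, were lower by a smaller factor, at group means of 6.37 CPM in 15Q against 3.17 and 3.37 CPM for Lgals4 and of 3.81 CPM against 1.70 and 1.65 CPM for Vil1. Fabp2 and Apoa4 were at 0 in all 6 of these, with 8 to 53 counts in the 15Q libraries. Of the epidermis list, 5 of 7 genes had this order, and its sum was 16.9 to 28.4 CPM in 15Q and 8.69 to 9.62 CPM in the others. Of its genes that passed the filter other than through 15Q alone, Krt10 and Lor had the order, and Krt1 and Trp63 did not. Krt5, the keratin of basal epidermis, had 56, 145 and 228 counts in 15Q and 1 count in all over the other 6. Its partner Krt14 had 96, 315 and 466 and 2 to 15, and the suprabasal Krt10 was at 8.07 ± 1.46 CPM in 15Q against 5.0 ± 0.768 and 4.54 ± 0.0564 CPM. Krt10 fell in both comparisons (in 84Q not without 15Q replicate 2 or 3 or 84Q replicate 2, and in 84Q+IGF-1 not without 15Q replicate 2), and Lor, the cornified envelope protein loricrin, in 84Q+IGF-1 (1.78 and 0.598 CPM). Krt1 (2.40 CPM in 15Q against 1.49 and 1.75 CPM) and the regulator Trp63 (1.98 against 1.44 and 1.81 CPM) were not called. Of the hepatocyte list, 6 of 8 had the order, and its sum was 14.7 to 28.1 CPM in 15Q and 2.93 to 4.67 CPM in the others, with Fgb at 0 in all 6. Only Cps1 and Cyp2e1 of this list passed the filter other than through 15Q alone, and both had the order. Cps1, the first enzyme of the urea cycle, was at 10.9 ± 3.34 CPM in 15Q against 1.75 ± 0.238 and 1.61 ± 0.487 CPM, and the cytochrome Cyp2e1 at 4.20 ± 1.05 CPM against 0.910 ± 0.103 and 1.0 ± 0.217 CPM. Albumin (Alb) had 53, 162 and 270 counts in 15Q, 0, 1 and 19 in those of 84Q and 0, 6 and 0 in 84Q+IGF-1. Cps1 and Cyp2e1 fell in both comparisons. Some genes passed the filter only through 15Q, and nothing is read from their calls or their order. Of the genes named here these are Fabp1, Muc13, Krt5, Krt14, Fgb, Alb and, of those that follow, Cfd, Fabp4, Cidec and Thbs4. The same holds for Cdh17 and Sis of the intestinal list, with 44 to 446 counts in the 15Q libraries and 0 to 4 in the others. Apoa1 and Apoa2 of the hepatocyte list also reached the level of the filter in fewer than 3 libraries outside 15Q, with 8 to 53 counts in the 15Q libraries and 0 to 14 in the others, and were not called. Apoa2 and the untested Serpina1a of that list did not have the order. Their group means were 0.293 and 0.116 CPM in 15Q, 0.436 and 0.338 CPM in 84Q and 0.137 and 0.0411 CPM in 84Q+IGF-1.

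Adipocyte genes had this order in 5 of 10. Of the tested ones, Cfd, Fabp4 and Cidec had it but passed the filter only through 15Q, and Plin4, Lipe and Ucp1 did not have it. The list's sum did not have it either, at 33.8 ± 2.48 CPM in 15Q, 29.7 ± 4.64 CPM in 84Q and 33.4 ± 7.99 CPM in 84Q+IGF-1. Most of it was the lipase Lipe (20.2 to 21.4 CPM as group means) and the lipid droplet protein Plin4 (8.59 to 11.4 CPM), which were not called. Cfd, Fabp4 and Cidec are an adipocyte protease, lipid carrier and droplet protein. Their 15Q counts were 27, 45 and 110 for Cfd, 18, 50 and 95 for Fabp4 and 11, 26 and 31 for Cidec, against 0 to 4 in each other library. The hormone Adipoq was at 0 in all 6 libraries outside 15Q, and Ucp1, of brown adipocytes, had 0, 18 and 14 counts in 15Q and 4 to 13 in the others.

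The tendon gene Thbs4 had 31, 105 and 142 counts in 15Q and 3 to 12 in the others, while the other tested tendon, cartilage and bone genes, among them Fmod, Dmp1, Col2a1 and Acan, were not called. Of the kidney tubule list, 1 of 6 had the order, the anion transporter Slc22a6. It was at 11.6 ± 2.94 CPM in 15Q, 6.16 ± 1.58 CPM in 84Q and 5.96 ± 1.22 CPM in 84Q+IGF-1 and fell in both comparisons. The call of Slc22a6 was lost without 15Q replicate 2 or 3 or 84Q replicate 2 or 3 in 84Q (adjusted p up to 0.240), and without 15Q replicate 3 or 84Q+IGF-1 replicate 1 or 2 in 84Q+IGF-1 (up to 0.210). Aqp2 was not called, and Slc12a1 and Kap were not tested. The sums of the kidney list (10.5 to 15.95 CPM in 15Q, 5.40 to 8.37 CPM in the others) and of the smooth muscle list (47.0 to 53.5 and 33.7 to 42.6 CPM) also did not overlap. Most of the kidney sum was Slc22a6 alone. The tubule genes Umod and Slc34a1 had 0 to 2 counts in each library, and Kap had 0 in each 15Q library. Replicate 1 was the lowest 15Q library for the intestinal, epidermal and hepatocyte sums, as for the members, and replicate 2 for the kidney and smooth muscle sums.

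Choroid plexus, red cell and Xist levels also differed between libraries, and their part in the result was not tested. Choroid plexus genes (among them Ttr, Clic6, Kl and Otx2) were high in 15Q replicates 1 and 3 and in 84Q replicate 2 (450.1 to 984 CPM for 6 genes) and between 25.1 and 63.1 CPM in the other 6, 15Q replicate 2 included. Red cell genes (the globins Hba-a1, Hba-a2, Hbb-bs and Hbb-bt with Alas2) were highest in 15Q replicate 2 (210.5 CPM for 5 genes, against 22.8 to 80.9 CPM in the others). High Xist, an RNA of the inactive X, was seen in 4 libraries spread over the 3 groups, 2 of them 15Q. The labels name no extraction or sequencing batch, so a batch that coincided with the control group and the repeat length cannot be told apart here.

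**Figure D4:**
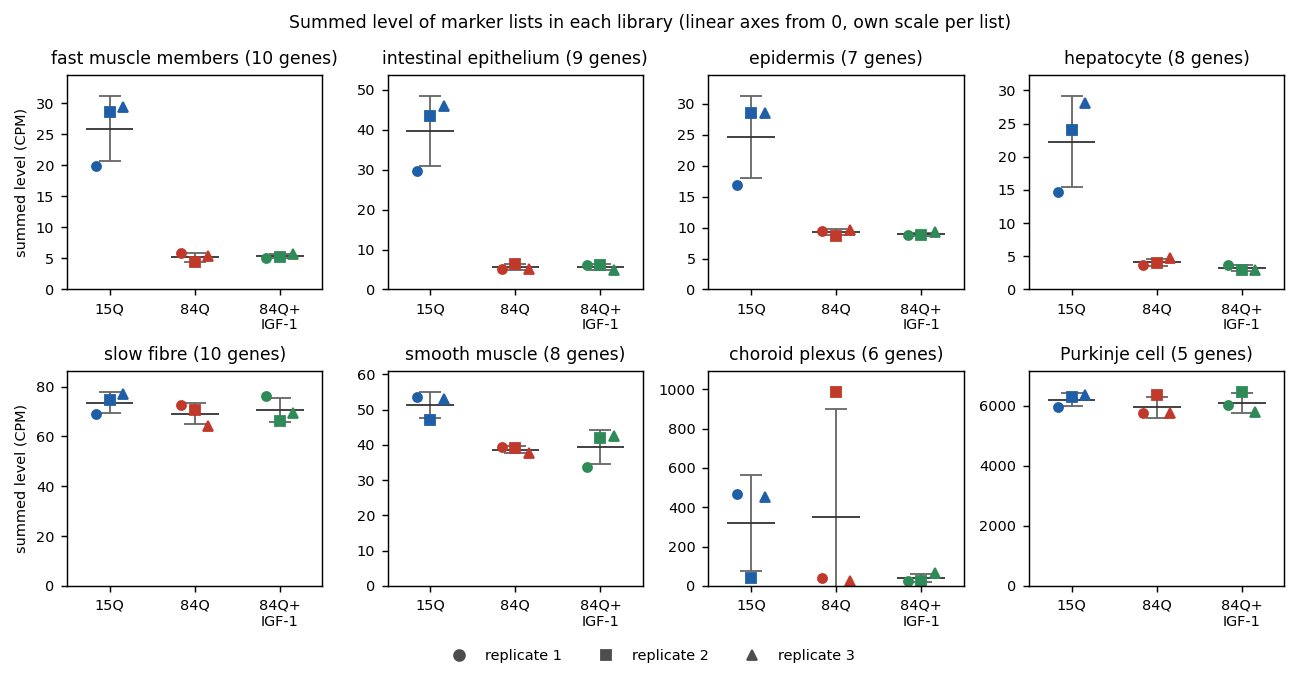
Summed level in CPM (linear axis from 0, own scale per panel) of the members and of 7 marker lists by group. Points are single libraries with the replicate given by the symbol, lines are means and bars are 1 SD (n = 3), drawn only above 0. The members, intestinal, epidermal, hepatocyte and smooth muscle lists have all 3 15Q points above the other 6, with 15Q replicate 1 the lowest of the 15Q points in each but smooth muscle. Slow fibre and Purkinje cell lists overlap between groups, and the choroid plexus list is high in 3 libraries of 2 groups.

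The genes whose pattern was most like that of the members were read from the correlation, over the 9 libraries, of log2 CPM with the log2 of the members' summed CPM, among 19344 other genes that passed the filter. The 8 highest were Hnf4a, Gm3776, Fgg, Itih1, Cyp2b10, Fgb, Gm10639 and Ces2c, with Pearson's r between 0.994 and 0.995 (n = 9 libraries that share 1 normalization, given without a test). Hnf4a encodes a nuclear receptor of liver and gut epithelium, Fgg and Fgb encode fibrinogen chains, and Itih1 a plasma inhibitor. None of the 8 was on a muscle list. All 8 were at 0 counts in the 84Q libraries, 7 of them also in the 84Q+IGF-1 libraries, and their 15Q means lay between 0.650 and 5.16 CPM. Each thus passed the filter only through 15Q and had to follow the step between the groups, so nothing is read from its r. The 9 libraries form separate clusters in the members' sum, 15Q and the rest, so that r describes this step and not a relation within groups.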

How the data were processed

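RNA of the cerebellum of 9 mice, 3 per group, was measured by strand-specific, paired-end RNA-seq. Per the labels and the study's methods, the authors trimmed reads with Trimmomatic 0.36, aligned them with HISAT2 2.2.0 to GRCm38.p6 (mm10) and counted them on genes with featureCounts, and the deposited values are these read counts, without normalization. The annotation, the strand setting and the treatment of reads matching several genes are not given in the sources used here. Columns that name a library were assigned to a sample by its label.

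Levels were computed as CPM on TMM-scaled library totals, and as TPM with the union of exon lengths in GENCODE vM21 (GRCm38), which gave a position to 37681 of the 37816 genes. All genes were fitted in edgeR 4.0.16 (R 4.3.3; limma 3.58.1) by quasi-likelihood, with the 3 groups and all 9 libraries in 1 model. The filterByExpr rule kept 19353 genes, over which p-values were adjusted after Benjamini and Hochberg. Calls required an adjusted p below 0.1 together with a change of 1.5-fold or more. Tests are two-sided. Ratios with 1 to 3 counts in a group carry an exact conditional binomial 95% interval, and a group at 0 was set to 3 counts over its libraries. The steps were tested on simulated counts with known changes.

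The members and the gene lists were chosen with earlier results of these data known. Of 183 listed symbols, 180 matched a row. Tnnc2 and Myf5 were not analysed here. Named are all members, of each list the 4 genes of highest mean CPM and the called genes where there were 5 or fewer, all genes of the fast, slow, developmental and paralog lists, and the 8 genes most like the members. Xirp1, Xirp2, Myom2, Synpo2l, Myog, Pax7, Myf6, Fabp2, Apoa4, Muc2, Adipoq, Ucp1, Cdh17, Sis, Apoa1, Apoa2, Serpina1a, Umod, Slc34a1, Pcp2 and Alas2 were named after their values were seen. Promoters are from RefSeq, and transcripts were compared by words of 31 bases. The alternatives were the DESeq2 1.42.0 Wald test, an adjusted p under 0.05, no filter, DESeq2 size factors, the replicate number as a block, a fit to the 2 groups in question alone, and leaving out single libraries in turn. Total counts set the precision. Intervals and floors cover counting error only.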

Additional observations from a re-analysis of the deposited data

How the results depend on the processing

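The ratio of the members' summed level in 15Q was between 4.63 and 5.57 to 84Q and between 4.48 and 5.36 to 84Q+IGF-1 with each library left out, and moved by less than its spread (1 SD) with DESeq2 size factors, with plain library totals and without any member but Actn3, whose removal gave 7.80 and 7.73. Against 15Q, the genes called in 84Q and in 84Q+IGF-1 were 414 and 435 in the edgeR fit to all 9 libraries, 521 and 588 with the DESeq2 Wald test, 243 and 281 at an adjusted p under 0.05, and 1025 and 1284 without the filter on low counts. For 84Q+IGF-1 against 84Q they were 0 in that fit, 6 with the DESeq2 Wald test and 168 without the filter. With each library left out these counts were 184 to 551, 226 to 629 and 0 to 9. The lowest were those without 15Q replicate 2 (184 and 244) or replicate 3 (185 and 226), and between 84Q+IGF-1 and 84Q 9 and 1 were called without 84Q replicate 2 and without 84Q+IGF-1 replicate 3.

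The count of other fast fibre genes, Tnni2 included, called lower in 84Q was 1 at an adjusted p under 0.05 and 4 without the filter. With each library left out it was 0 to 2, with 0 without 15Q replicate 2 or 3 and 1 without 84Q replicate 2 or 3 or 84Q+IGF-1 replicate 3. In 84Q+IGF-1 it was 1 to 3, with 1 without 15Q replicate 2 or 3 or 84Q+IGF-1 replicate 1. Other striated muscle genes called lower in 84Q were 2 with the DESeq2 Wald test, 6 without the filter and 1 with only the 2 groups compared. In 84Q+IGF-1 they were 1 at an adjusted p under 0.05, 6 without the filter and 1 with only the 2 groups. With each library left out they were 0 to 4 in both, with 4 without 84Q replicate 1 and 3 without 15Q replicate 1 in 84Q, and in 84Q+IGF-1 4 without 15Q replicate 1, 0 without 15Q replicate 2 or 3 and 1 without 84Q+IGF-1 replicate 1. Leaving out any other library but 15Q replicates 2 and 3 gave 2 in 84Q. None of either list was called in 84Q+IGF-1 against 84Q with any library left out (0 to 0). The cause of these changes was not tested, and a lone pair in a group was assumed to vary like the others.

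The labels give the groups the same replicate numbers, but same-numbered libraries did not deviate together, with correlations between −0.309 and 0.0788, so the numbers were not taken to pair them. With the replicate block, 242 and 271 genes were called in 84Q and 84Q+IGF-1 against 15Q, 1 other fast fibre gene in 84Q, and 0 other striated muscle genes in 84Q+IGF-1. Of the called genes on the lists, 618 of the alternative values kept their call and direction and 72 kept the direction only. Depth limits Myh2 and the heavy chains outside 15Q, where 3 counts or fewer were seen per group.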
